A study of Mus musculus with 9 samples.

Results

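The genes described here encode protein parts of the splicing machinery and the best known RNA-binding regulators that act on it. They are all genes of a mouse count table whose symbol begins with Snrp, Sf3a, Sf3b, Prpf, Srsf or Hnrnp, the numbered forms only for Sf3a, Sf3b, Prpf and Srsf. The table held 64 such genes among 15552. Of these, 63 had enough reads to be tested: 11 snRNP proteins, 9 SF3A and SF3B subunits, 13 PRPF factors, 10 SR proteins and 20 hnRNP proteins. The remaining one, Snrpn, had at most 2 counts in any library. The rule reads gene symbols and uses no measured value.

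Splicing removes introns from pre-mRNA on the spliceosome, which is assembled on each intron from small nuclear ribonucleoprotein particles (snRNPs), each a small nuclear RNA with its proteins. The Sm proteins form a ring around most of these RNAs, SF3A and SF3B are the parts of the U2 snRNP that hold the branch point, and the PRPF factors include the core of the U5 snRNP and of the U4/U6.U5 tri-snRNP. SR proteins bind exons and mostly favour their inclusion, whereas hnRNP proteins coat nascent transcripts and often favour skipping. MYC, the oncogene that drives the line used here, is known to raise the transcription of splicing genes in several tumour types. Growth factor signalling is known to reach SR proteins through the kinases that phosphorylate them, a step that RNA counts do not measure.

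The cells were MyC-CaP, an established mouse prostate cancer line from a MYC-driven tumour. All 9 libraries came from cells starved for 6-12 h in medium lacking serum and calcium and then given 15 ng/mL of recombinant NRG1, which binds and activates the receptor HER3, with RNA taken at 0 h, 12 h or 24 h. Each time point had 3 libraries labelled as biological replicates from wells of 1 line, so that p-values measured the spread between these wells. The series follows gene expression over time with NRG1 in the medium. No library without NRG1 was among the samples at 12 h or 24 h, so time with NRG1 and further time in starvation medium cannot be told apart.

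The libraries held 28467089 to 39239760 counts assigned to genes. Of the markers of prostate epithelium, Hoxb13 was read at 81.3 to 106 CPM (counts of a gene relative to the TMM-scaled library total) and Krt8 at 17.3 to 26.2 CPM, whereas Krt18, Epcam and Cdh1 stayed under 0.5 CPM in each library. Immune and endothelial markers summed to at most 1.11 and 0.299 CPM, and the fibroblast list was nearly all Pdgfra, at 14.8 to 17.7 CPM. Mitochondrial genes took at least 1.41% of counts in the 0 h libraries but at most 1.18% in those of 12 h and 1.36% in those of 24 h, and the part of this shift in the results was not tested. Replicate 3 at 12 h stood apart from the other libraries of its group, with a chi-square per degree of freedom of 10.2 and 10.3 against them (4.3 between replicates 1 and 2). To a lesser degree replicate 1 at 0 h also stood apart, at 7.63 and 6.75 (4.2 between replicates 2 and 3). The counts of called members at 12 h, over all of them and by family, are given with and without 12 h replicate 3. Their ranges when 1 library was left out are given as well. For bulk RNA, fewer cells with a transcript and less of it per cell cannot be told apart.

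All 63 tested members were well expressed. Their means over the 9 libraries ran from 15.5 CPM for Hnrnph3 to 1364 CPM for Hnrnpa1, with a median of 138 CPM, and together they took a mean of 1.33% of scaled counts before NRG1 and of 1.38% and 1.34% after 12 h and 24 h. Per kilobase of annotated exon, the highest level in each family was 433 CPM per kb for Hnrnpa1, a nuclear repressor of exon inclusion, 93.8 for Snrpb, which encodes the SmB protein, 73.8 for the SR protein gene Srsf9, 61.7 for the SF3B subunit gene Sf3b2, and 56.4 for Prpf8, whose product forms the catalytic scaffold of the U5 snRNP. The 7 tested Sm ring genes spanned 21.3 (Snrpd3) to 93.8 CPM per kb (Snrpb). The length joins the exons of all annotated isoforms, so levels per kb also depend on the annotation and give no measure of protein. Srsf5 (73.5 CPM per kb) lay beside Srsf9, and Hnrnpa1 stood well above the next hnRNP genes, Hnrnpab at 191 and Hnrnpa0 at 183 CPM per kb. Between genes these levels differed far more than between times, since no member was called with a change of 1.5-fold.

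**Figure D1:**
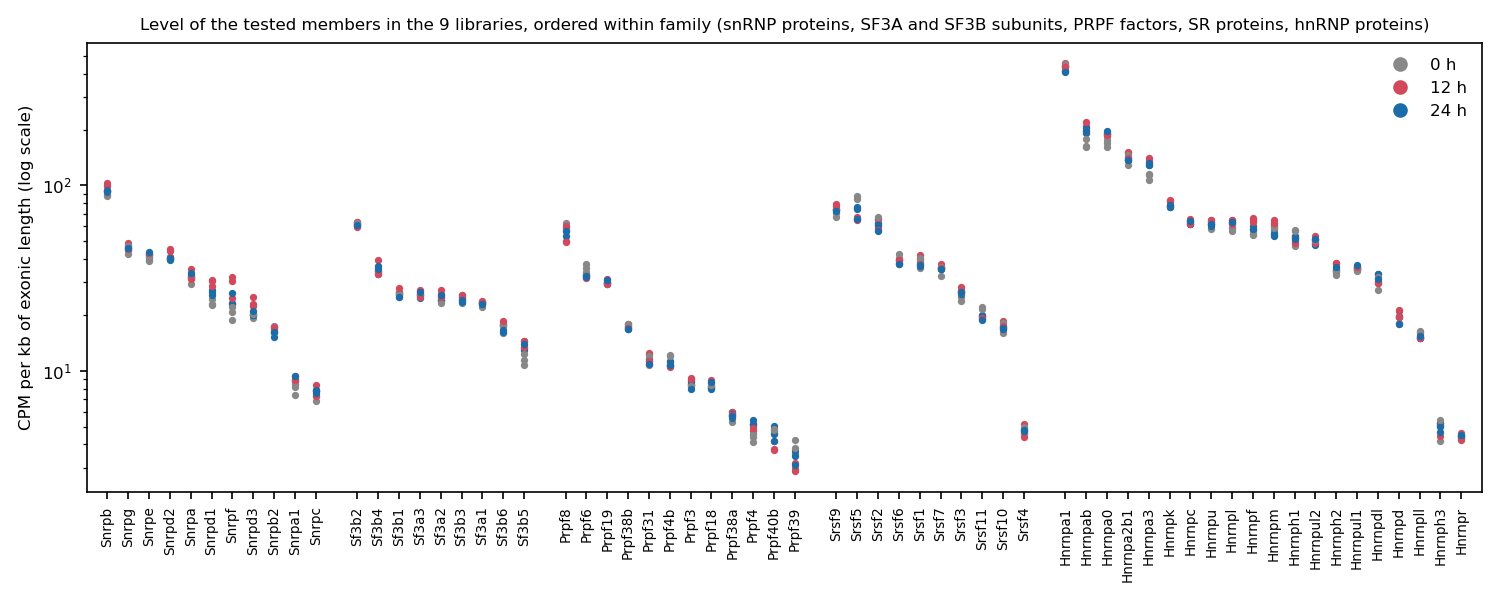
Level of the tested members, 1 of them not shown, in CPM per kilobase of annotated exon on a log scale, ordered within the 5 families (snRNP, SF3, PRPF, SR and hnRNP from left to right). Each gene has 9 points, 1 per library, coloured by time, and for most genes the times lie within the size of the symbols beside the range between genes, which runs from 3.42 to 433 CPM per kb.

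Several members share exonic bases or sequence with other genes, which matters because the strand setting and the treatment of reads with several matches were not given in the sources used here. On the GRCm38 annotation, antisense genes covered over 10% of the exonic bases of 8 members, with 85.4% for Snrpf (4933408J17Rik and Ccdc38), 43.0% for Srsf4, 29.1% for Hnrnpab (Phykpl), 26.5% for Hnrnpf, 25.3% for Srsf2 and 16.1% for Sf3a2 (Plekhj1). A further 14.7% of Hnrnpm was shared with March2 on the same strand. Near-identical copies elsewhere in the genome, of at least 97% identity over 150 bases or more, existed for 19 members, in 18 of them as pseudogenes, with 16 copies of Hnrnpa3, 8 of Hnrnpf and 7 of Hnrnpa1. The values of these genes are uncertain to the extent that reads were split or shared. The counts also sum all isoforms of a gene, so that the noncoding isoforms through which SR genes are known to limit their own expression were not separated.

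The 250 bases upstream of the annotated start are shown for 4 members with large changes at 12 h, to place their sequence beside the values that follow. Hnrnpa3 and Hnrnpab rose and Prpf39 and Srsf5 fell, and they were picked after their values were seen. The windows are RefSeq promoters on GRCm38.p6, written 5′ to 3′ on the gene's strand, at chr2:75659009-75659258 (plus strand), chr11:51606882-51607131 (minus), chr12:65036084-65036333 (plus) and chr12:80945249-80945498 (plus). Capitals mark matches on either strand to 6 short motifs: the E-box CACGTG, the site of MYC and related factors, the ETS core CCGGAAG, the CCAAT box CCAAT, the palindromic NRF1 site, the TATA box TATAAA and the E2F site TTTCCCGC.
Hnrnpa3: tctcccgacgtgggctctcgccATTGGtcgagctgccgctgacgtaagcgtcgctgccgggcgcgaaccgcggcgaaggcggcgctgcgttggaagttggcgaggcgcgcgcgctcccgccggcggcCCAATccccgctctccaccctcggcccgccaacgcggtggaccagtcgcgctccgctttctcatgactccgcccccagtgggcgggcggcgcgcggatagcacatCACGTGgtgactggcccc
Hnrnpab: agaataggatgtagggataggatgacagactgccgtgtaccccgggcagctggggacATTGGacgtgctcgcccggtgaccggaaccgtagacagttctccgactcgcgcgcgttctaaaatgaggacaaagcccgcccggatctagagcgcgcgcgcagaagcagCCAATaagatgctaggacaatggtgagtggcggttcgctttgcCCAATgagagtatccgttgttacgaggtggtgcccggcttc
Prpf39: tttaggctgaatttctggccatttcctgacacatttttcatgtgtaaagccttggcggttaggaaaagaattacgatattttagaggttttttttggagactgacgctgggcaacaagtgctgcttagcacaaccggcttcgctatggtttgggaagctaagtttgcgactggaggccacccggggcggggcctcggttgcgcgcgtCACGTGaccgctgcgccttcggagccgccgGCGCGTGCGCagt
Srsf5: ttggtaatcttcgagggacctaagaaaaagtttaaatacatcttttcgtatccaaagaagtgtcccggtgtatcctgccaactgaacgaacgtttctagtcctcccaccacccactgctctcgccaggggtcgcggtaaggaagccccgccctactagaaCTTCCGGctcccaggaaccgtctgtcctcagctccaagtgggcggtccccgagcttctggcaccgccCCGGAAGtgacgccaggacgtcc
An E-box thus stood 13 bases upstream of the start of Hnrnpa3, which rose, and 38 bases upstream of that of Prpf39, which fell. The 3 CCAAT boxes of Hnrnpab ended 37, 80 and 189 bases upstream, and the ETS matches of Srsf5 ended 17 and 84 bases upstream.

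RefSeq promoters were matched for 56 of the 64 members, 76 windows in all. ETS matches were in 28.9% of them, against 11.6% of the 15296 windows of all table genes and 6.91% of all 32851 mouse promoters given. NRF1 matches were in 18.4% (6.79% and 3.74%), CCAAT boxes in 46.1% (35.1% and 33.9%) and E2F matches in 5.26% (1.5% and 0.89%). E-boxes were in 10.5% (7.60% and 6.02%), and TATA boxes in 7.89% (7.77% and 12.4%). The 7 tested members with an E-box included 3 that were higher at 12 h, 2 that were lower and 2 that were not called, and the 18 with an ETS match included 3 higher and 2 lower. The 27 with a CCAAT box included 10 higher and 1 lower, Prpf40b. Over all 63 tested members 19 were higher and 5 lower at 12 h, and of all tested genes 13.6% were higher and 11.9% lower. Whether any motif went with a change was not tested. A match describes letters in a window and not a bound site, and the motifs of 1 window can overlap.

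After 12 h of NRG1, 24 of the 63 members differed from 0 h, 19 of them higher and 5 lower, in a table where 25.5% of all 11373 tested genes were called at an adjusted p of at most 0.05 (13.6% higher and 11.9% lower). As a share, 38.1% of members were called. Among the 7749 genes at least as abundant as the lowest member, which gives small changes more reads, 30.3% were called (16.5% higher and 13.8% lower). The median log2 fold change was 0.071 over members and -0.0028 over all tested genes. No change reached 1.5-fold, a size that 2.29% of all genes passed along with the threshold, but only 72 of these 7749 more abundant genes. Called members rose by 7.46% (Hnrnpk) to 41.9% (Snrpf) and fell by 8.88% (Prpf4b) to 22.6% (Prpf39). In 24 members all 3 libraries at 12 h lay above all 3 at 0 h (19.9% of all genes), and in 4 they lay below (18.5% of all genes, 38.4% in either direction). Leaving out replicate 3 at 12 h gave 28 called members, 23 higher and 5 lower, with Snrpf past 1.5-fold. Leaving out replicate 2 at 12 h gave 15, of which 11 were higher, and leaving out replicate 1 or 2 at 0 h gave 12 higher each.

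**Figure D2:**
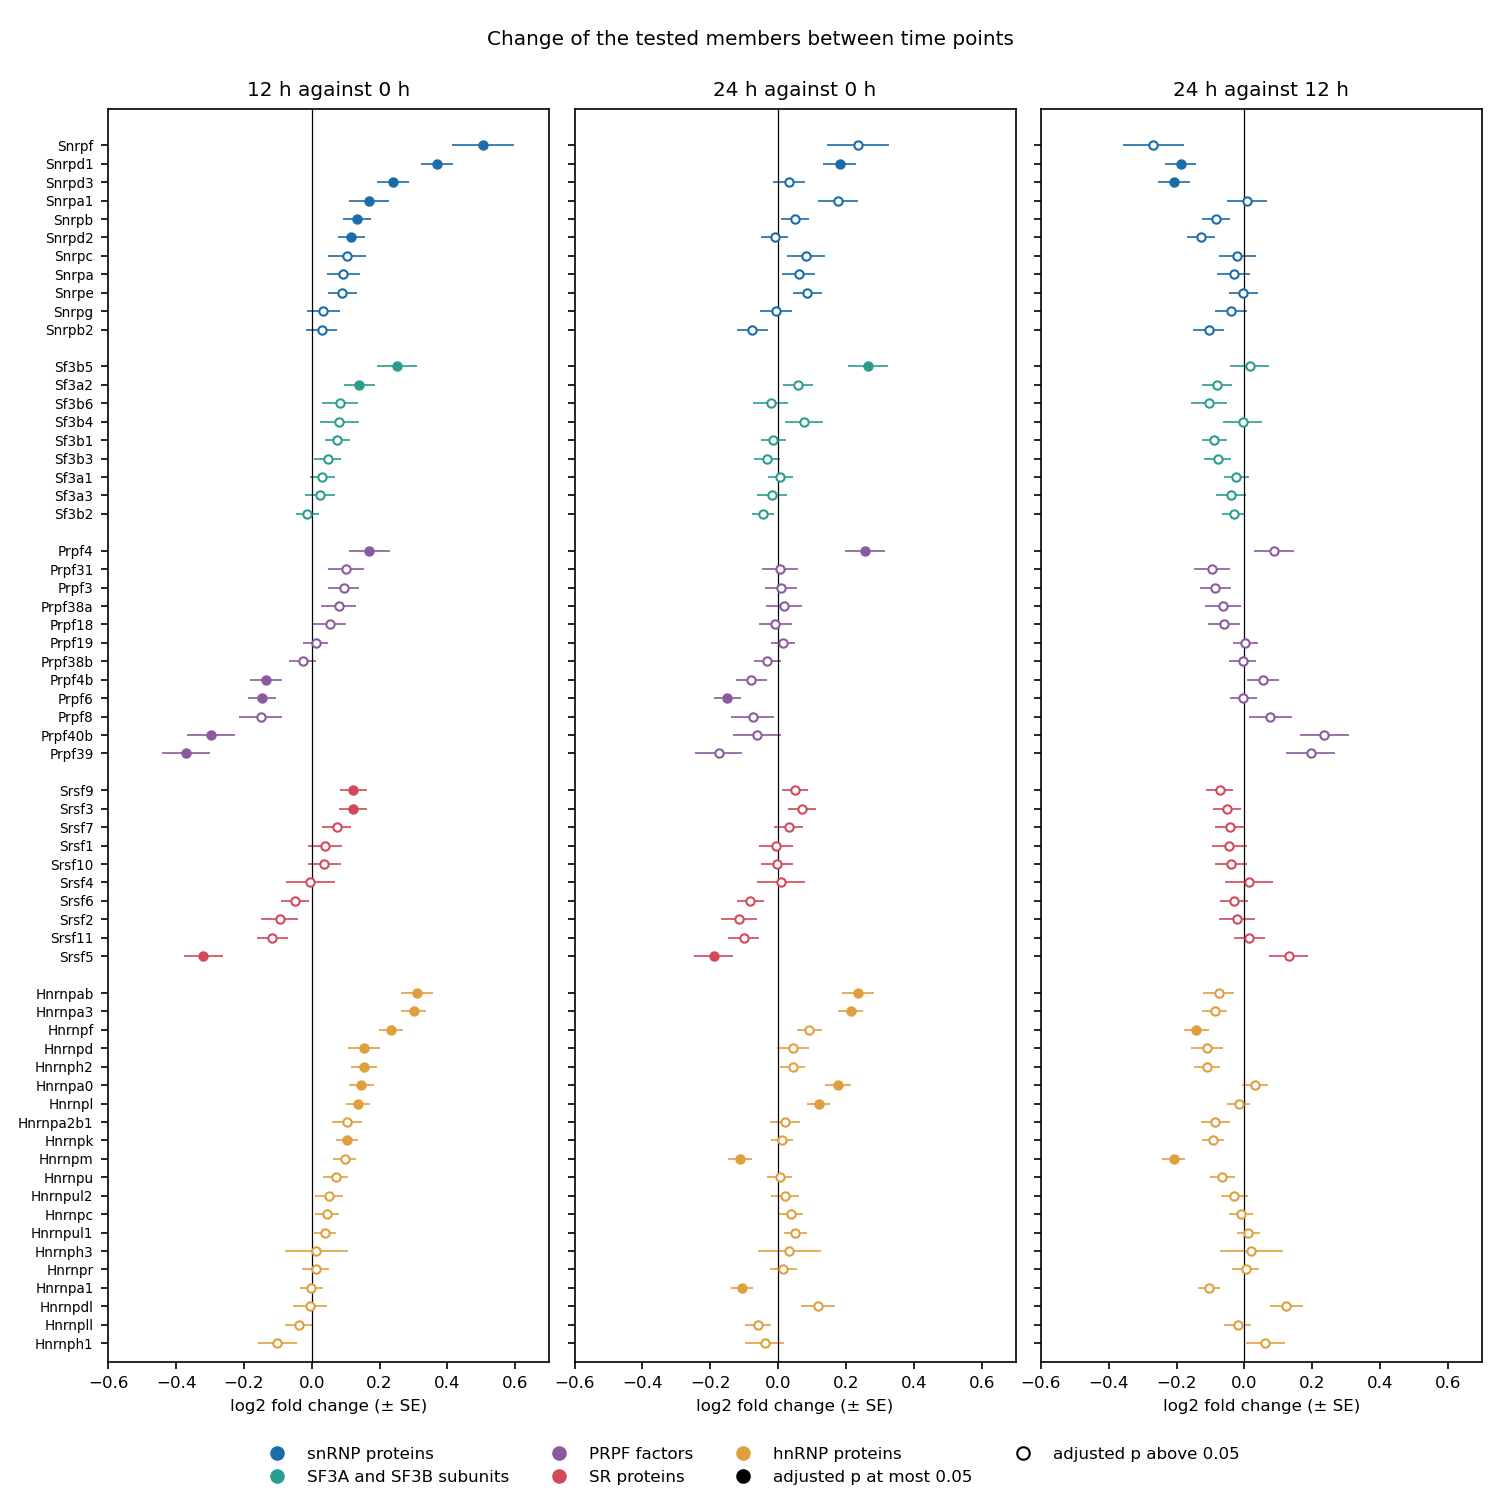
Log2 fold change with its standard error for the tested members, 1 of them not shown, in each of the 3 comparisons, grouped by family and ordered within it by the change at 12 h. Filled points have an adjusted p of at most 0.05, and they lie mainly to the right of 0 for snRNP and hnRNP genes at 12 h and mainly to the left for PRPF genes.

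**Figure D3:**
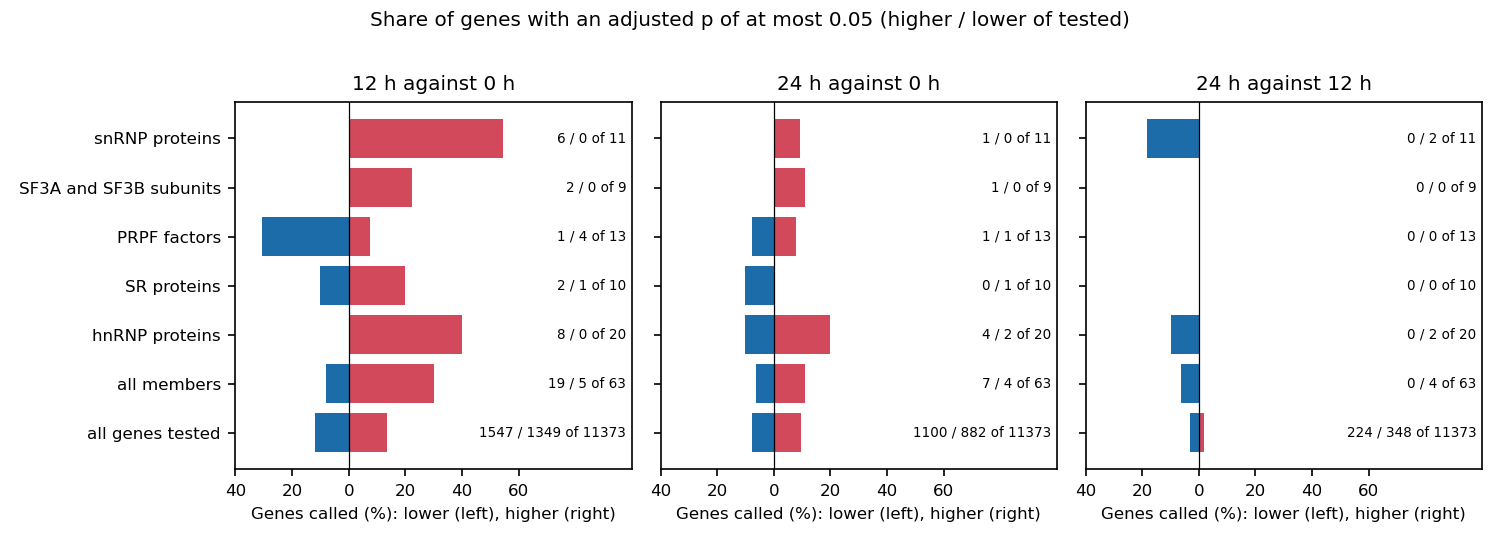
Percent of genes in each family, among all members and among all tested genes that were called lower (bars to the left of 0) or higher (bars to the right), with the counts beside them. At 12 h the higher bars of snRNP (6 of 11) and hnRNP genes (8 of 20) were longer than that of all genes, and at 24 h the bars of all members (7 higher and 4 lower of 63) were near those of all genes.

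Of the 11 snRNP genes 6 rose at 12 h, and by edgeR none fell, also at an unadjusted p under 0.05 and by DESeq2 and limma-voom. As a share, 54.5% of the family was called by edgeR, beside 25.5% of all tested genes. The 6 comprised 5 of the 7 tested Sm ring genes, Snrpf, Snrpd1, Snrpd3, Snrpb and Snrpd2, and the U2 snRNP gene Snrpa1. Snrpd1, for SmD1, was read at 46.8, 46.5 and 50.1 CPM at 0 h, 62.8, 63.5 and 58.9 CPM at 12 h, and 55.6, 54.3 and 52.8 CPM at 24 h. The 3 groups did not overlap, with 12 h on top and 24 h between, and the rise at 12 h was 29.2% (log2 fold change 0.37 ± 0.047 (SE), adjusted p = 2.78e-05). Snrpd3, for SmD3 (chromosome 10, 75517551 to 75537381, plus strand), was read at 65.8, 69.9 and 69.8 CPM at 0 h, 86.3, 79.2 and 77.2 CPM at 12 h, and 68.8, 68.8 and 72.6 CPM at 24 h. Only the 12 h libraries stood out, above both other groups, and the rise at 12 h was 18.1% (log2 fold change 0.24 ± 0.048 (SE), adjusted p = 0.00144). Snrpb, for SmB, was read at 175, 173 and 185 CPM at 0 h, 196, 204 and 185 CPM at 12 h, and 186, 181 and 184 CPM at 24 h. Its libraries at 12 h lay above those at 0 h by a narrow margin, since replicate 3 of either time was at 185 CPM (log2 fold change 0.13 ± 0.041 (SE), adjusted p = 0.0232). The call for Snrpb was lost without 0 h replicate 1 or 2 or 12 h replicate 1 or 2 (log2 fold change 0.099 to 0.13, adjusted p from 0.0637 to 0.12).

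Snrpf, for SmF (chromosome 10, 93583029 to 93589706, minus strand), had the largest fold change of the 63 and also the largest overlap with other genes. It was read at 17.96, 16.2 and 18.9 CPM at 0 h, 26.3, 27.6 and 21.1 CPM at 12 h, and 19.8, 19.9 and 22.5 CPM at 24 h. Replicates 1 and 2 at 12 h were far above the rest, and replicate 3 lay between them and 0 h, within the range of the 24 h libraries. The change at 12 h was a log2 fold change of 0.50 ± 0.092 (SE), adjusted p = 0.000693, and without replicate 3 at 12 h it was 0.62. Reads from the genes on the opposite strand could not be separated from it here. Snrpd2 and Snrpa1 had small changes at 12 h (log2 fold change 0.12, adjusted p = 0.0434, and log2 fold change 0.17, adjusted p = 0.048), and the calls depended on most single libraries. They were lost without 0 h replicate 1, 2 or 3, 12 h replicate 1 or 2, or 24 h replicate 1 or 3 (log2 fold change 0.085 to 0.14, adjusted p from 0.0533 to 0.188) for Snrpd2 and without 0 h replicate 1 or 2, 12 h replicate 1 or 2, or 24 h replicate 1, 2 or 3 (log2 fold change 0.12 to 0.19, adjusted p from 0.0521 to 0.168) for Snrpa1. The replicate block and scaling by total counts or upper quartiles also ended both calls, and Snrpa1 was called neither by DESeq2 nor by limma-voom, nor with trends on GC content and length removed. The ring genes that were not called, Snrpe (log2 fold change 0.09, adjusted p = 0.139) and Snrpg (log2 fold change 0.035, adjusted p = 0.647), and the U1 genes Snrpa (0.093) and Snrpc (0.10) had small positive fold changes, as did the U2 gene Snrpb2 (0.029). Without 12 h replicate 3 both Snrpa (log2 fold change 0.14, adjusted p = 0.0347) and Snrpc (log2 fold change 0.16, adjusted p = 0.0321) were called higher. Across the family the calls ranged from 3 to 8 when 1 library was left out, 8 without replicate 3 at 12 h, and scaling by total counts gave 4.

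At 24 h only Snrpd1 of the snRNP family remained called (log2 fold change 0.18 ± 0.047 (SE), adjusted p = 0.0138, 13.4% above 0 h), and this call was lost without 0 h replicate 2 or 24 h replicate 1 (log2 fold change 0.16, adjusted p from 0.057 to 0.0593). Snrpf had a log2 fold change of 0.24, adjusted p = 0.0931, and was called with no filter on low counts, or without 12 h replicate 3 (log2 fold change 0.24, adjusted p = 0.0245). Between 12 h and 24 h, Snrpd3 fell by 13.4% (log2 fold change -0.21 ± 0.048 (SE), adjusted p = 0.0185) and Snrpd1 by 12.2% (log2 fold change -0.19 ± 0.047 (SE), adjusted p = 0.0279). These falls were lost without 12 h replicate 1 or 24 h replicate 1 or 2 (log2 fold change -0.20 to -0.16, adjusted p from 0.0869 to 0.11) for Snrpd3, and for Snrpd1 with scaling by total counts or without 12 h replicate 1 or 2 or 24 h replicate 1, 2 or 3 (log2 fold change -0.20 to -0.16, adjusted p from 0.0682 to 0.134). All 7 ring genes had a negative fold change between 12 h and 24 h, from -0.0043 (Snrpe) to -0.27 (Snrpf), with a median of -0.13. The summed level of the 7 ring genes averaged 544 ± 15.6 CPM before NRG1 and 609 ± 24.5 and 563 ± 5.45 CPM after 12 h and 24 h (SD, n = 3).

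The SF3A and SF3B subunits moved little. By edgeR, 2 of 9 rose at 12 h, Sf3b5 and Sf3a2, and none fell, also at an unadjusted p under 0.05 and by DESeq2 and limma-voom. The share called was 22.2%, near the 25.5% of all tested genes. Without 12 h replicate 3 the counts were again 2 and 0, and when 1 library was left out 1 to 2 were higher and 0 lower. Sf3b5, a small subunit of the SF3B core (chromosome 10, 13005343 to 13009183, plus strand), was read at 43.9, 41.0 and 47.4 CPM at 0 h, 50.7, 55.2 and 51.5 CPM at 12 h, and 55.7, 49.6 and 53.6 CPM at 24 h. Its libraries at both later times lay above all of those at 0 h, with no difference between 12 h and 24 h beyond their spread. The change was a log2 fold change of 0.25 ± 0.059 (SE), adjusted p = 0.00487 at 12 h and a log2 fold change of 0.27 ± 0.059 (SE), adjusted p = 0.00447 at 24 h, the largest of any member at 24 h, and both calls held with each library left out. Sf3a2, for an SF3A subunit, was read at 63.7, 63.8 and 61.3 CPM at 0 h and 69.1, 72.3 and 66.7 CPM at 12 h (log2 fold change 0.14 ± 0.045 (SE), adjusted p = 0.0291). Its groups did not overlap, but the call was lost without 0 h replicate 3 or 12 h replicate 1 or 2 (log2 fold change 0.11 to 0.14, adjusted p from 0.0625 to 0.133), and with scaling by total counts.

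Neither Sf3b1 nor Sf3b2 passed the test. Sf3b1, for the subunit that contacts the branch point and is often mutated in blood cancers, was read at 283, 298 and 293 CPM at 0 h, 303, 300.1 and 318 CPM at 12 h, and 289.5, 294 and 283 CPM at 24 h. Its libraries at 12 h lay above those at 0 h and at 24 h, by a margin that did not pass the test (log2 fold change 0.075 ± 0.037 (SE), adjusted p = 0.145), although with trends on GC content and length removed it did. Sf3b2, the most abundant of the family, was read at 431, 419.6 and 428 CPM at 0 h, 430.0, 428 and 409 CPM at 12 h, and 416, 409 and 414 CPM at 24 h, with overlapping groups at 12 h (log2 fold change -0.013 ± 0.034 (SE), adjusted p = 0.819). The other 5 subunits had fold changes between 0.023 (Sf3a3) and 0.083 (Sf3b6) at 12 h on the log2 scale.

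The PRPF factors held 4 of the 5 members that fell at 12 h, Prpf39, Prpf40b, Prpf6 and Prpf4b, and 1 that rose, Prpf4. Together these were 38.5% of the family, beside 25.5% of all tested genes. Without 12 h replicate 3 there were 4 lower and 2 higher, and when 1 library was left out 2 to 4 lower and 0 to 2 higher. Prpf39, a U1 snRNP associated protein (chromosome 12, 65036333 to 65063386, plus strand), was read at 42.3, 50.4 and 45.7 CPM at 0 h, 34.2, 37.9 and 35.2 CPM at 12 h, and 41.5, 44.4 and 37.2 CPM at 24 h. All libraries at 12 h lay below those at 0 h, and the 24 h libraries overlapped both. The fall at 12 h was 22.6% (log2 fold change -0.37 ± 0.071 (SE), adjusted p = 0.00103). At 24 h the log2 fold change was -0.18, adjusted p = 0.0961, called only with the replicate block (with or without trends on GC content and length removed), with no filter on low counts, or without 0 h replicate 1 (log2 fold change -0.23, adjusted p = 0.0423). Prpf40b (chromosome 15, 99295087 to 99317018, plus strand), was read at 23.0, 24.0 and 23.8 CPM at 0 h, 18.8, 20.6 and 18.4 CPM at 12 h, and 24.99, 22.4 and 20.7 CPM at 24 h. Again all 12 h libraries were lowest, without overlap with either other time, and it fell by 18.6% (log2 fold change -0.30 ± 0.072 (SE), adjusted p = 0.00599).

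Prpf6, which bridges the U5 and U4/U6 particles in the tri-snRNP, was read at 145, 139 and 132 CPM at 0 h, 129, 121 and 125 CPM at 12 h, and 126, 124 and 125 CPM at 24 h. It was lower at 12 h (log2 fold change -0.15 ± 0.04 (SE), adjusted p = 0.0127) and at 24 h (log2 fold change -0.15 ± 0.04 (SE), adjusted p = 0.0156), with no overlap with 0 h at either time. The call was lost without 0 h replicate 1 or 12 h replicate 2 (log2 fold change -0.13 to -0.11, adjusted p from 0.0566 to 0.0617) at 12 h and without 0 h replicate 1 or 2 or 24 h replicate 2 or 3 (log2 fold change -0.15 to -0.12, adjusted p from 0.0529 to 0.07) at 24 h. Prpf4, a U4/U6 protein (chromosome 4, 62408797 to 62426990, plus strand), was read at 23.4, 25.9 and 24.9 CPM at 0 h, 26.7, 29.4 and 27.7 CPM at 12 h, and 28.8, 29.3 and 30.8 CPM at 24 h. Both later groups lay above 0 h, with a log2 fold change of 0.26 ± 0.059 (SE), adjusted p = 0.00586 at 24 h, where the call held with each library left out. At 12 h its rise (log2 fold change 0.17 ± 0.059 (SE), adjusted p = 0.0453) was lost by DESeq2, by limma-voom, with scaling by total counts or upper quartiles, or without 0 h replicate 1 or 3, 12 h replicate 2, or 24 h replicate 1 (log2 fold change 0.13 to 0.18, adjusted p from 0.0529 to 0.174). Prpf4b, a kinase unrelated to Prpf4 in spite of its name, fell by 8.88% at 12 h (log2 fold change -0.13, adjusted p = 0.0449), with overlapping groups, and this was lost without 0 h replicate 2 or 3, 12 h replicate 1, 2 or 3, or 24 h replicate 2 or 3 (log2 fold change -0.14 to -0.097, adjusted p from 0.0512 to 0.211), and with the replicate block.

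Prpf8 showed how far 1 library can carry a value. It was read at 425, 468 and 435 CPM at 0 h, 375, 370.3 and 452 CPM at 12 h, and 396, 440.3 and 425 CPM at 24 h. Replicates 1 and 2 at 12 h were below every other library, whereas replicate 3 lay inside the range of 0 h. Over all libraries Prpf8 did not pass the test (log2 fold change -0.15 ± 0.063 (SE), adjusted p = 0.0942), and it did with no filter on low counts, or without 12 h replicate 3 (log2 fold change -0.24, adjusted p = 0.000825). The remaining 7 PRPF genes, not all of them named here, had fold changes from -0.026 (Prpf38b) to 0.10 (Prpf31) at 12 h, none of them called over all libraries. Prpf31 was called higher without 0 h replicate 3 or 12 h replicate 3 (log2 fold change 0.16, adjusted p from 0.0331 to 0.05). Prpf19, for the ubiquitin ligase that gives the activated spliceosome's core complex its name, was nearly level at 216, 213 and 220.3 CPM at 0 h and 215, 226 and 214 CPM at 12 h.

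Of the 10 SR protein genes, Srsf3 and Srsf9 rose and Srsf5 fell at 12 h, and without 12 h replicate 3 there were likewise 2 higher and 1 lower. Over all libraries 30% of the family was called, near the 25.5% of all tested genes. When 1 library was left out, 0 to 2 SR genes were higher and 1 to 2 lower at 12 h. Srsf5 (chromosome 12, 80945504 to 80950507, plus strand), whose transcript is known as an early insulin and growth factor responsive one, was read at 299.8, 348 and 338 CPM at 0 h, 261, 269.7 and 259 CPM at 12 h, and 305, 297 and 261 CPM at 24 h. The 12 h libraries were all below 0 h, and the 24 h libraries overlapped both. The fall was 19.9% at 12 h (log2 fold change -0.32 ± 0.057 (SE), adjusted p = 0.000592), which held with each library left out, and 12.3% at 24 h (log2 fold change -0.19 ± 0.057 (SE), adjusted p = 0.0282), which was lost without 0 h replicate 2 or 3 or 24 h replicate 2 or 3 (log2 fold change -0.21 to -0.12, adjusted p from 0.0511 to 0.18). A near-identical copy elsewhere matches 51.7% of its longest protein-coding transcript. Srsf3, the smallest SR protein and a reported oncogene, was read at 188, 198 and 209.5 CPM at 0 h and 215, 224 and 210.0 CPM at 12 h. The groups touched without overlapping (log2 fold change 0.12 ± 0.041 (SE), adjusted p = 0.0394), and the call was lost without 0 h replicate 1 or 2, 12 h replicate 1 or 2, or 24 h replicate 1 or 3 (log2 fold change 0.085 to 0.13, adjusted p from 0.0589 to 0.158). Srsf9 was read at 118, 112 and 122 CPM at 0 h and 124, 132 and 127 CPM at 12 h (log2 fold change 0.12 ± 0.04 (SE), adjusted p = 0.031), and its call was lost without 0 h replicate 1 or 2 or 12 h replicate 2 (log2 fold change 0.097 to 0.13, adjusted p from 0.0583 to 0.129). Srsf9 also lost its call with trends on GC content and length removed. With scaling by total counts or upper quartiles neither Srsf3 nor Srsf9 was called, so that the family then had Srsf5 alone.

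The founding members of the family did not pass the test at either time. Srsf1, for the splicing activator SF2/ASF and a known MYC target, was read at 205, 220.2 and 230.2 CPM at 0 h, 219, 240.0 and 214 CPM at 12 h, and 229.9, 210.0 and 213 CPM at 24 h. The 3 groups overlapped throughout (log2 fold change 0.039 ± 0.051 (SE), adjusted p = 0.626 at 12 h). Srsf2, whose product is often mutated in myeloid disease, was read at 182, 195 and 199 CPM at 0 h, 174, 196 and 169.7 CPM at 12 h, and 185, 179.7 and 167 CPM at 24 h, with overlapping groups and a log2 fold change of -0.095 ± 0.053 (SE), adjusted p = 0.212 at 12 h, where it was called without 12 h replicate 2 (log2 fold change -0.16, adjusted p = 0.03). The other SR genes lay between -0.12 (Srsf11, adjusted p = 0.0758) and 0.074 (Srsf7) on the log2 scale at 12 h. Srsf11 was called lower with no filter on low counts, or without 0 h replicate 1 (log2 fold change -0.17, adjusted p = 0.00556). By edgeR no SR gene was higher at 24 h, also at an unadjusted p under 0.05 and by DESeq2 and limma-voom.

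Among the hnRNP genes, 8 of 20 rose at 12 h and by edgeR none fell, also at an unadjusted p under 0.05 and by DESeq2 and limma-voom, both of which called 9 higher, as did the fit without 12 h replicate 3. By edgeR over all libraries 40% of the family was called, beside 25.5% of all tested genes. When 1 library was left out, 6 to 9 hnRNP genes were higher and 0 to 1 lower at 12 h. Hnrnpa3, an abundant paralog of Hnrnpa1 (chromosome 2, 75659261 to 75669407, plus strand), was read at 574, 615 and 619 CPM at 0 h, 760.3, 743 and 725 CPM at 12 h, and 694, 693 and 710.1 CPM at 24 h. The groups were fully separate, with 12 h highest and 24 h between, and it was 23.2% higher at 12 h (log2 fold change 0.30 ± 0.037 (SE), adjusted p = 1.92e-05) and 15.9% higher at 24 h (log2 fold change 0.21 ± 0.037 (SE), adjusted p = 0.000618). Hnrnpab, for an A/B type protein (chromosome 11, 51600100 to 51606847, minus strand), was read at 451, 450.0 and 496 CPM at 0 h, 582, 608 and 543 CPM at 12 h, and 566, 533 and 545 CPM at 24 h. Its libraries at both later times were all above 0 h, by 24.1% at 12 h (log2 fold change 0.31 ± 0.047 (SE), adjusted p = 0.00013) and 17.7% at 24 h (log2 fold change 0.23 ± 0.047 (SE), adjusted p = 0.002). Hnrnpa0, a single-exon gene of the same branch (chromosome 13, 58125879 to 58128556, minus strand), was read at 455, 432 and 473 CPM at 0 h, 492, 515 and 498 CPM at 12 h, and 506, 507 and 524 CPM at 24 h. It was also higher at both times without overlap (log2 fold change 0.15 ± 0.038 (SE), adjusted p = 0.00956 at 12 h, and log2 fold change 0.18 ± 0.038 (SE), adjusted p = 0.00368 at 24 h). The calls of these 3 genes at 12 h and 24 h held with each library left out.

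Hnrnpf, which binds runs of G and is close to Hnrnph1, was read at 165, 167 and 173 CPM at 0 h, 198, 202 and 192 CPM at 12 h, and 178, 183 and 177 CPM at 24 h. The 12 h libraries were highest and the 24 h libraries lay between, without overlap (log2 fold change 0.23 ± 0.036 (SE), adjusted p = 0.000167 at 12 h). Hnrnpf was not called at 24 h against 0 h (log2 fold change 0.092, adjusted p = 0.0915). It was lower at 24 h than at 12 h (log2 fold change -0.14 ± 0.036 (SE), adjusted p = 0.0314), a fall lost with scaling by total counts or upper quartiles, or without 12 h replicate 1 or 2 or 24 h replicate 1, 2 or 3 (log2 fold change -0.16 to -0.12, adjusted p from 0.0715 to 0.146). Hnrnpk, for a poly(C) binding protein, was read at 492, 491 and 503 CPM at 0 h and 529, 539 and 530.2 CPM at 12 h (log2 fold change 0.10 ± 0.032 (SE), adjusted p = 0.0238), and its call was lost without 0 h replicate 2 or 12 h replicate 2 (log2 fold change 0.094 to 0.10, adjusted p from 0.064 to 0.0814). Hnrnpl, Hnrnph2 and Hnrnpd were the other risers at 12 h, at a log2 fold change of 0.14, adjusted p = 0.00724, log2 fold change 0.15, adjusted p = 0.00599 and log2 fold change 0.15, adjusted p = 0.0251. The first of them was also higher at 24 h (log2 fold change 0.12, adjusted p = 0.0213), which was lost without 0 h replicate 2 or 24 h replicate 1, 2 or 3 (log2 fold change 0.11 to 0.12, adjusted p from 0.0621 to 0.0876), and the call for Hnrnpd was lost without 0 h replicate 1 or 2 or 12 h replicate 1 or 2 (log2 fold change 0.13 to 0.14, adjusted p from 0.0767 to 0.0981). Hnrnph1 had a negative fold change at 12 h (log2 fold change -0.10, adjusted p = 0.22) and was called lower without 0 h replicate 1 (log2 fold change -0.19, adjusted p = 0.00241), a library in which it stood at 274 CPM, the lowest of the 9.

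The most abundant member, Hnrnpa1, and its near relative Hnrnpa2b1 were not called at 12 h. Hnrnpa1 (chromosome 15, 103240432 to 103246692, plus strand) was read at 1382, 1421 and 1389.5 CPM at 0 h, 1442, 1384 and 1364 CPM at 12 h, and 1309.5, 1298 and 1289 CPM at 24 h. Its 0 h and 12 h libraries overlapped (log2 fold change -0.0012 ± 0.033 (SE), adjusted p = 0.987), and all 24 h libraries lay below both (log2 fold change -0.11 ± 0.033 (SE), adjusted p = 0.0355 against 0 h). That call was lost with no filter on low counts, or without 0 h replicate 2 or 3, 12 h replicate 2, or 24 h replicate 1, 2 or 3 (log2 fold change -0.11 to -0.09, adjusted p from 0.0523 to 0.147). Hnrnpa2b1 was read at 843, 903 and 959.6 CPM at 0 h, 983, 1002 and 925 CPM at 12 h, and 929, 906 and 907 CPM at 24 h. Its groups overlapped (log2 fold change 0.10 ± 0.044 (SE), adjusted p = 0.0948), and it was called with no filter on low counts, or without 0 h replicate 3 or 12 h replicate 3 (log2 fold change 0.15 to 0.16, adjusted p from 0.0217 to 0.0218). The differences between these genes and Hnrnpa3 were not tested.

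Hnrnpm, which regulates splicing in epithelial to mesenchymal transition (chromosome 17, 33646233 to 33686860, minus strand), was read at 458, 473 and 468 CPM at 0 h, 514, 484 and 499 CPM at 12 h, and 424, 439 and 431 CPM at 24 h. The 3 groups did not overlap, with 12 h on top and 24 h at the bottom. The difference at 12 h missed the threshold by a little (log2 fold change 0.097 ± 0.035 (SE), adjusted p = 0.0506) and passed it by DESeq2, by limma-voom, with trends on GC content and length removed, or without 12 h replicate 2 (log2 fold change 0.12, adjusted p = 0.0397). The fall at 24 h against 0 h was 7.5% (log2 fold change -0.11 ± 0.035 (SE), adjusted p = 0.0329) and was lost with no filter on low counts, or without 0 h replicate 2 or 3 or 24 h replicate 1, 2 or 3 (log2 fold change -0.12 to -0.099, adjusted p from 0.0717 to 0.145). Between 12 h and 24 h it fell by 13.5% (log2 fold change -0.21 ± 0.035 (SE), adjusted p = 0.00231), the only fall between these times among members that held under each alternative and with each library left out.

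**Figure D4:**
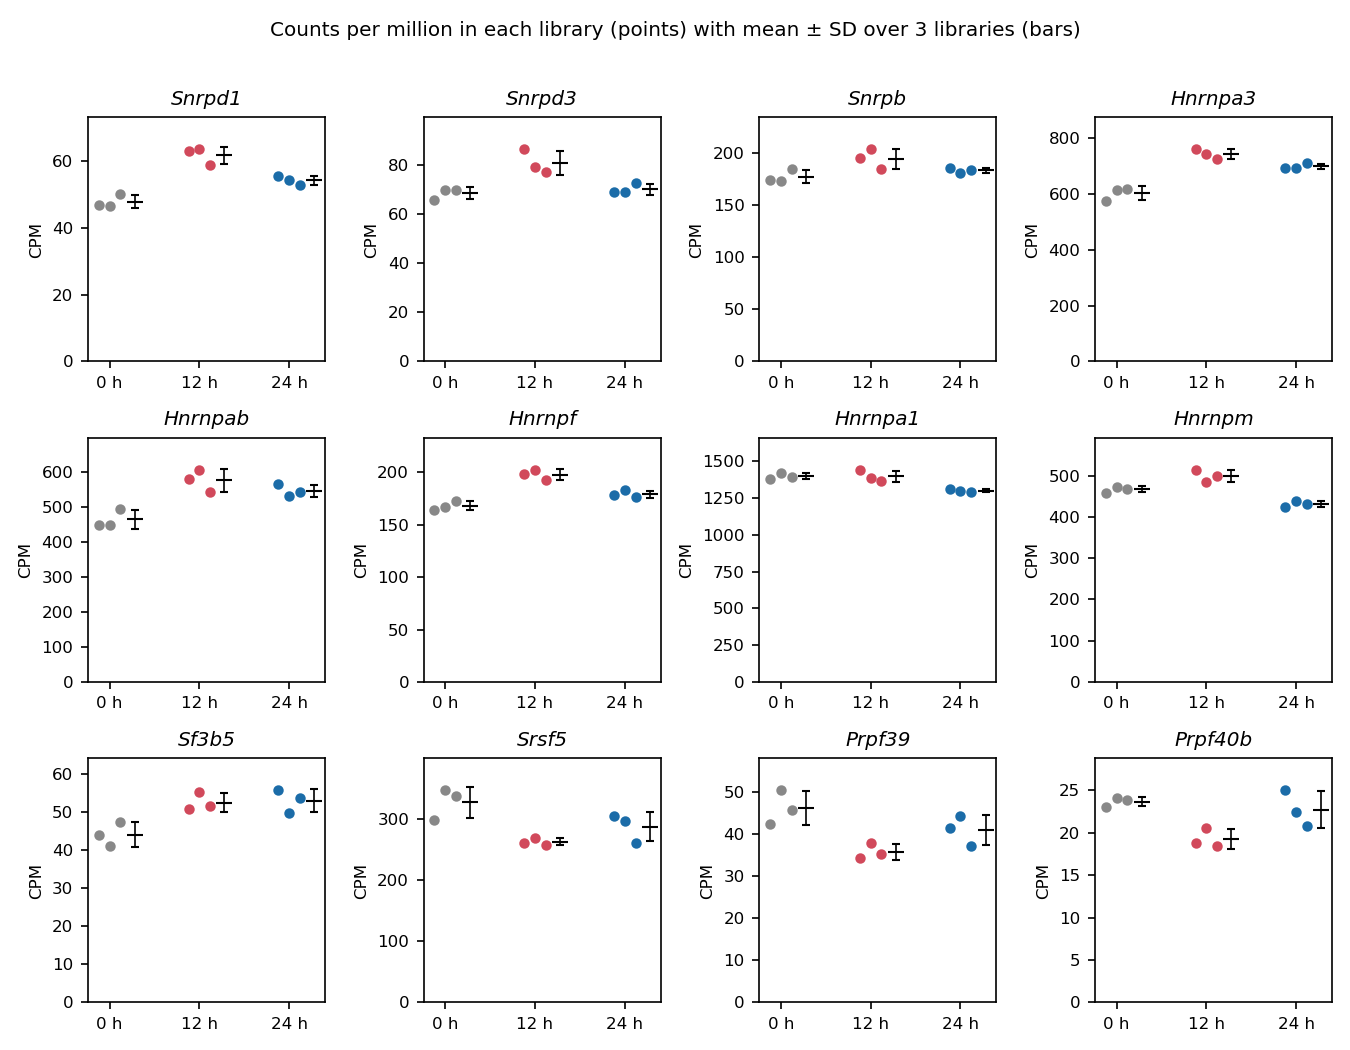
CPM of 12 members in each library (points, 3 per time) with the mean and SD of the 3 libraries (bars), on axes that start at 0. The 12 h libraries lay above the 0 h libraries without overlap for Snrpd1, Snrpd3, Snrpb, Hnrnpa3, Hnrnpab, Hnrnpf, Hnrnpm and Sf3b5 and below them for Srsf5, Prpf39 and Prpf40b, and the 24 h libraries of Hnrnpa1 and Hnrnpm lay below both earlier times.

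Summed over families, the changes were small. The hnRNP genes summed to 7966 ± 232 CPM before NRG1 and to 8539 ± 137 and 8160 ± 33.2 CPM after 12 h and 24 h (SD, n = 3), and the 12 h libraries were all above the others. The snRNP genes summed to 757 ± 21.6, 836 ± 32.8 and 784 ± 8.55 CPM, with every library at 12 h above those at the other times. The SF3 genes summed to 1425 ± 23.4, 1472 ± 17.6 and 1418 ± 0.497 CPM, also highest at 12 h in each library. The PRPF genes summed to 1432 ± 37.9, 1366 ± 36.7 and 1389 ± 25.1 CPM and the SR genes to 1686 ± 91.3, 1632 ± 57.7 and 1624 ± 50.1 CPM, with overlapping groups in both. No test was made of these sums, in which the most abundant members count most.

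**Figure D5:**
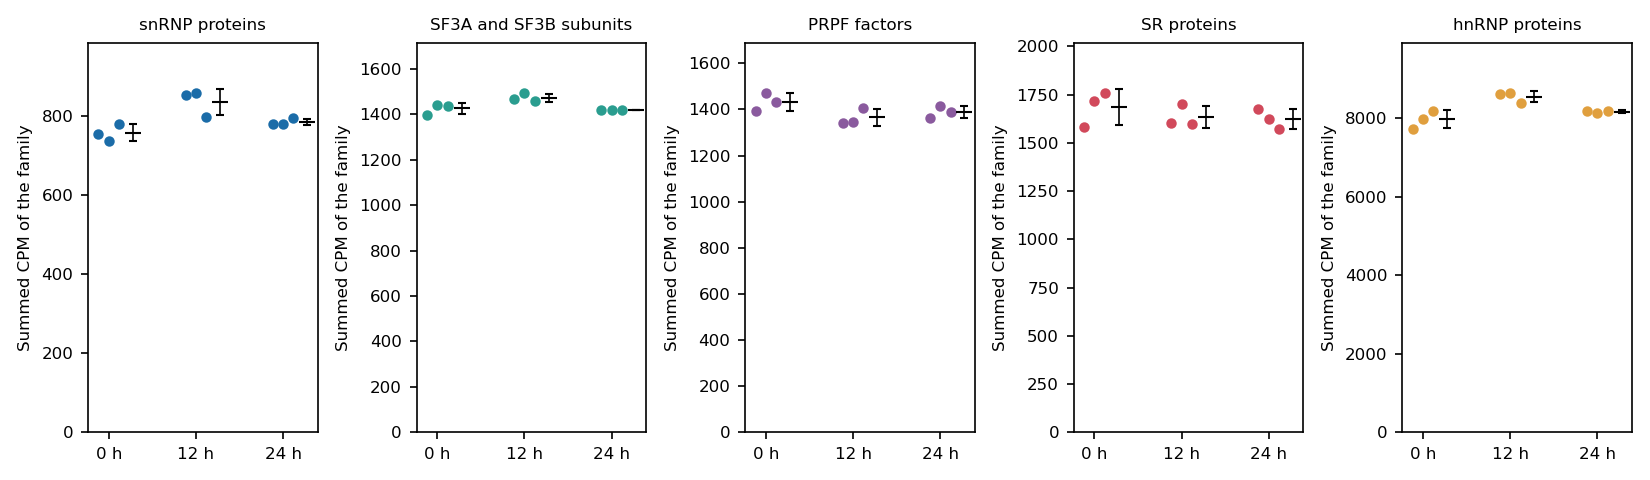
Summed CPM of each family in the 9 libraries (points) with the mean and SD of the 3 libraries at each time (bars), on axes that start at 0. The 12 h libraries were highest without overlap for the snRNP, SF3 and hnRNP families, and the times overlapped for the PRPF and SR families.

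At 24 h against 0 h, 11 of 63 members were called, 7 higher and 4 lower, which as a share (17.5%) was near the 17.4% of all tested genes (9.67% higher and 7.76% lower). The median log2 fold change was 0.012 over members and -0.0065 over all genes, and no member passed 1.5-fold together with the threshold, as 2.27% of all genes did. Among the 7749 genes at least as abundant as the lowest member, 19.9% were called (10.5% higher and 9.38% lower), and 96 also passed 1.5-fold. The libraries of the 2 times did not overlap in 11 members that were higher and 4 that were lower (17.6% and 17.9% of all genes, 35.5% together). The 7 higher genes were Sf3b5, Prpf4, Hnrnpab, Hnrnpa3, Snrpd1, Hnrnpa0 and Hnrnpl, up by 8.69% to 20.2%, and the 4 lower ones were Srsf5, Prpf6, Hnrnpm and Hnrnpa1, down by 7.07% to 12.3%. The calls of Sf3b5, Prpf4, Hnrnpab, Hnrnpa3 and Hnrnpa0 held under each alternative. The count of lower members was 7 without replicate 1 at 0 h and fell to 1 without replicate 3 at 0 h, to 2 without replicate 1 at 24 h, and it was 0 in the fits lacking replicate 2 of 0 h or of 24 h, or replicate 3 of 24 h, by edgeR. The comparisons at 12 h and 24 h share the 0 h libraries, so their fold changes are not independent of each other. Likewise, 24 h against 12 h shares the 12 h libraries with 12 h against 0 h, with opposite sign. A rise at 12 h and a fall after it are therefore not independent results.

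Between 12 h and 24 h, 4 members were called, all of them lower at 24 h: Hnrnpm, Snrpd3, Snrpd1 and Hnrnpf. They make up 6.35% of members, beside 5.03% of all genes (1.97% higher and 3.06% lower). No member was higher at 24 h by edgeR, DESeq2 or limma-voom, and 4 were at an unadjusted p under 0.05. Among genes at least as abundant as the lowest member, 6.54% were called (2.26% higher and 4.28% lower). The libraries did not overlap in 2 members that were higher and 14 that were lower (11.4% and 13.6% of all genes, 25% together). No member passed 1.5-fold, as 0.29% of all genes did and 6 of the 7749 genes at least as abundant as the lowest member. The median log2 fold change was -0.032 over members and 0.0023 over all genes, and 46 of 63 members had a negative value. Without replicate 3 at 12 h, 8 members were called, 7 lower and 1 higher, the additional ones being Snrpd2, Snrpf and Hnrnpa1 (lower) and Prpf8 (higher), and the lower count was 1 to 2 without replicate 1 or 2 at 12 h or any of the 24 h libraries.

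A wider list of 132 other splicing genes was read alongside, of which 127 were tested. At 12 h 26 of these rose and 7 fell, and the 26.0% called was near the 25.5% of all tested genes. At 24 h 10 rose and 6 fell (12.6%, below the 17.4% of all genes), and between 12 h and 24 h 5 were called, all lower (3.94%, beside 5.03%). Their median at 12 h was 0.047 on the log2 scale. Closest to the Sm ring are the like-Sm proteins, which form related rings on U6 snRNA and in mRNA decay: 6 of 10 rose at 12 h and 4 at 24 h. These were 60% and 40% of the list, beside 25.5% and 17.4% of all tested genes. Lsm3 was read at 22.4, 23.1 and 22.3 CPM at 0 h, 25.9, 28.5 and 27.8 CPM at 12 h, and 26.5, 24.7 and 26.9 CPM at 24 h (log2 fold change 0.28 ± 0.059 (SE), adjusted p = 0.00219 at 12 h), with all later libraries above 0 h. Lsm11, which belongs to the U7 snRNP of histone mRNA processing, had a log2 fold change of 0.26, adjusted p = 0.0108 at 12 h and of 0.28, adjusted p = 0.0094 at 24 h, the former lost without 12 h replicate 2 (log2 fold change 0.21, adjusted p = 0.0585) and the latter without 24 h replicate 3 (log2 fold change 0.23, adjusted p = 0.0576). The SMN complex and its partners, which load the Sm ring, had 1 of 14 higher at 12 h, Gemin6 (log2 fold change 0.28, adjusted p = 0.0286, lost with trends on GC content and length removed, or without 0 h replicate 1 or 3 or 12 h replicate 1 or 2 (log2 fold change 0.20 to 0.30, adjusted p from 0.0526 to 0.127)), and 1 lower at 24 h, Wdr77 (log2 fold change -0.18, adjusted p = 0.015, lost without 0 h replicate 2 or 3 or 24 h replicate 1 or 2 (log2 fold change -0.17 to -0.15, adjusted p from 0.05 to 0.0738)). The share called in this SMN list was 7.14% at each time, below that of all tested genes (25.5% at 12 h and 17.4% at 24 h). A near-identical pseudogene copy matches 44.2% of the longest protein-coding transcript of Gemin6. Of the 15 other snRNP proteins 3 rose at 12 h (20% called), among them the minor spliceosome gene Snrnp25 (log2 fold change 0.33, adjusted p = 0.00268) and the U5 gene Snrnp40 (log2 fold change 0.25, adjusted p = 0.00663).

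Among factors of the 3' splice site, 3 of 9 were called at 12 h, all of them higher (33.3%, beside 25.5% of all tested genes). U2af1 had a log2 fold change of 0.18, adjusted p = 0.00729, and a near-identical pseudogene copy matches 68.8% of its longest protein-coding transcript. For U2af2 the log2 fold change was 0.12, adjusted p = 0.0145, a call lost without 0 h replicate 2 or 12 h replicate 2 (log2 fold change 0.11, adjusted p from 0.057 to 0.0574). U2af2 was read at 269, 266 and 279.6 CPM at 0 h, 297, 300.3 and 289.6 CPM at 12 h, and 266, 271 and 271 CPM at 24 h, with 12 h above both other times, whose libraries overlapped. Of 22 factors of the activated spliceosome and the catalytic steps 4 were called at 12 h, all of them higher (18.2%, below the share of all genes). Ppil1 had a log2 fold change of 0.30, adjusted p = 0.00087 and Cdc5l a log2 fold change of 0.22, adjusted p = 0.00049, although Cdc5l has 10 near-identical copies. The exon junction and coactivator list had 3 of 14 called at 12 h, all of them higher (21.4%, also below the share of all genes). Alyref, the mRNA export adaptor, was read at 71.7, 70.8 and 76.3 CPM at 0 h, 93.8, 102 and 91.7 CPM at 12 h, and 93.1, 91.3 and 98.8 CPM at 24 h. Both later groups were clear of 0 h (log2 fold change 0.39 ± 0.048 (SE), adjusted p = 1.93e-05 at 12 h, and log2 fold change 0.37 ± 0.048 (SE), adjusted p = 3.56e-05 at 24 h), the largest rise in the wider list at either time. Magoh had a log2 fold change of 0.19, adjusted p = 0.00711 at 12 h.

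Of 10 genes for SR protein kinases and transport 1 rose and 2 fell at 12 h, Clk1 and Clk4, kinases that phosphorylate SR proteins. The share called was 30%, near the 25.5% of all tested genes. Clk1 was read at 77.3, 90.9 and 83.0 CPM at 0 h and 73.6, 70.3 and 71.2 CPM at 12 h (log2 fold change -0.23 ± 0.06 (SE), adjusted p = 0.0107) and Clk4 at 56.2, 59.1 and 59.4 CPM at 0 h and 53.3, 48.8 and 50.4 CPM at 12 h (log2 fold change -0.20 ± 0.05 (SE), adjusted p = 0.00756), both lower without overlap at 12 h. The call for Clk1 was lost without 0 h replicate 2 (log2 fold change -0.16, adjusted p = 0.0814). Of the 33 other regulators 5 rose and 5 fell at 12 h (30.3% called, also near the share of all genes). Mbnl1, a regulator of developmental exons, had the largest fall, at 236, 243 and 247 CPM at 0 h, 191, 199 and 179.9 CPM at 12 h, and 205, 211 and 207 CPM at 24 h (log2 fold change -0.35 ± 0.04 (SE), adjusted p = 1.04e-05). It was also lower at 24 h (log2 fold change -0.22 ± 0.04 (SE), adjusted p = 0.000858), and the groups did not overlap at any time. Tia1, a U-rich binding regulator, was lower at both times (log2 fold change -0.22, adjusted p = 0.00975 at 12 h, and log2 fold change -0.19, adjusted p = 0.025 at 24 h), and its calls were lost with trends on GC content and length removed or without 0 h replicate 2 or 3 or 12 h replicate 1 (log2 fold change -0.18 to -0.17, adjusted p from 0.0535 to 0.0593) at 12 h and without 0 h replicate 2 or 3 or 24 h replicate 1, 2 or 3 (log2 fold change -0.20 to -0.15, adjusted p from 0.0579 to 0.122) at 24 h.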

How the data were processed

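RNA from 9 wells of MyC-CaP cells was sequenced as paired reads from poly(A) libraries. The authors trimmed reads with Cutadapt, aligned them with STAR to GRCm38.p6, and counted them per GENCODE vM24 gene with featureCounts, and the deposited values are these raw counts. Strand and multiple matches in counting are not given in the sources used here. Groups came from the labelled time.

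Counts were tested with edgeR 4.0.16 in R 4.3.3 (filterByExpr, TMM scaling, quasi-likelihood F test, two-sided) in one fit of all 9 libraries with 6 residual degrees of freedom. Values of p were adjusted by the Benjamini-Hochberg method over all 11373 tested genes, and a gene was called at an adjusted p of at most 0.05. Printed adjusted p-values are from this fit, except those given for a left-out library, which are from the same test refitted without that library. CPM were computed on TMM-scaled totals. Alternatives were DESeq2 1.42.0, limma-voom (limma 3.58.1), RLE, total-count and upper-quartile scaling, no count filter, a replicate block, removal of trends on GC content and length, and leaving out each library. Some of the fits were also run on counts simulated from the spread of the main fit, which does not test them on the real libraries. Counting error is small at 28467089 to 39239760 counts per library.

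The rule for members reads symbols and no measured value, but the rule and the lists were settled on with earlier results of these data known. Named members were, per family, the 3 called genes with the largest absolute fold change at 12 h and at 24 h and the most abundant gene per kilobase, over all members the 3 largest called changes between 12 h and 24 h, any called gene past 1.5-fold, and in any case Srsf1, Srsf2, Srsf3, Hnrnpa1, Hnrnpa2b1, Hnrnpk, Sf3b1, Snrpb and Prpf8. From each list of other splicing genes up to 2 with the largest called change at 12 h or 24 h were named. Other members were named after their values were seen, as were the 4 promoters shown. Coordinates, overlaps and copies are from GENCODE on GRCm38. The values of 1 member and of 1 marker gene are not reported here by name.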

Additional observations from a re-analysis of the deposited data

How the results depend on the processing

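By edgeR, 13 of the 24 calls at 12 h, 5 of 11 at 24 h and 1 of 4 between 12 h and 24 h held in each alternative and with each library left out. Leaving out 1 library gave 15 to 28 called members at 12 h (11 to 23 higher, 0 to 1 past 1.5-fold) with a median log2 fold change of 0.043 to 0.094. At 24 h against 0 h it gave 5 to 14 called (0 to 7 lower) and a median of -0.013 to 0.042. Between 12 h and 24 h it gave 1 to 8 called (0 to 1 higher and 1 to 7 lower) and a median of -0.064 to -0.019. For this last comparison scaling by total counts left 2 called, 2 of them lower, and fitting without the filter on low counts gave 8 called, 3 of them higher. The cause was not tested. Same-numbered libraries had deviations correlated at -0.074 to 0.13, and differently numbered ones at -0.13 to 0.12. The labels do not say whether a number marks a shared batch or day, and correlations this weak cannot decide it. The replicate block gave 21, 12 and 4 called members in the 3 comparisons and changed 4 of 189 member results, ending the calls of Prpf4b, Snrpa1 and Snrpd2 at 12 h and adding Prpf39 at 24 h. The median at 24 h against 0 h turned negative (-0.013) without 0 h replicate 1, and the medians of the other comparisons kept their sign. With n = 3, a missed threshold does not show that a gene did not change.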
